A study of Ophthalmotilapia nasuta and Ophthalmotilapia ventralis with 60 samples.

Results

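The circadian clock genes of the brain were examined in females of the cichlids Ophthalmotilapia nasuta and Ophthalmotilapia ventralis. The 10 genes were chosen by their symbols: the activators arntl and clock, the repressors nr1d1, ciart, bhlhe40 and bhlhe41, the output regulators tef, hlf and nfil3, and the kinase gene csnk1e. All 10 were found among the 36499 genes listed in the count tables. All 10 were also among the 11680 genes that passed a filter on low values, which asked for a level above 15 CPM (counts scaled to library size) in at least 4 libraries.

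The animal clock is a feedback loop of transcription. The proteins of clock and arntl (also called bmal1) form a pair that binds DNA and switches on genes of their own repressors, so that the levels of many clock transcripts rise and fall once a day. Rev-erb alpha, the product of nr1d1, represses arntl in mammals, while the proteins of bhlhe40 and bhlhe41 (Dec1 and Dec2) compete with the activators for the same DNA sites. In fish, clocks run in many tissues, the brain included, and light reaches them directly as well as through the eyes and the pineal organ.

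Each brain was divided into 6 parts: telencephalon, olfactory bulbs, diencephalon, optic tectum, cerebellum and brain stem. The diencephalon included the preoptic area, hypothalamus and pituitary. The 5 O. nasuta and 5 O. ventralis were mature wild-caught females with no experimental treatment, and each species lived with its own kind in 1 aquarium, under equal hours of light and dark in the same room. All fish were killed on the same day between late morning and afternoon, with O. nasuta dissected before O. ventralis, so that species, aquarium, place of capture and time of death cannot be told apart. The time of death of each fish and its age were not given in the sources used here. Whether the fish number follows the order of killing was not given either, and it is used here only as a name. Reads of both species were mapped to the genome of a related cichlid, O. niloticus, and a difference between the species in how well the reads of a gene map also cannot be told apart from a difference in its level.

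Of the 60 libraries of 3′ mRNA sequencing, 59 were used, with 137128 to 1531632 counts each (median 519523). The library with the fewest counts (25798), from the olfactory bulbs of O. nasuta fish 5, was left out, which leaves 4 fish in that group and 5 in the other 11. For 57 of the 59 libraries the nearest library was one of the same brain part, and the exceptions were olfactory bulb libraries of O. nasuta fish 4 and O. ventralis fish 1. The genes written down as markers of the parts were highest in their own part for 4 of 6 tested in the cerebellum, 1 of 4 in the telencephalon, 3 of 3 in the olfactory bulbs, 4 of 4 in the optic tectum, 5 of 5 in the diencephalon and 5 of 5 in the brain stem. The clock genes were measured with unequal precision. Over all 59 libraries tef had 9658 counts, hlf 6164, csnk1e 4876, bhlhe41 2088, arntl 2008, bhlhe40 1662 and clock 1065, but nfil3 had only 409, and nr1d1 and ciart 227 each. No read of nr1d1 was found in 11 libraries and none of ciart in 7, so that differences in these genes were detectable only where they were large.

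**Figure D1:**
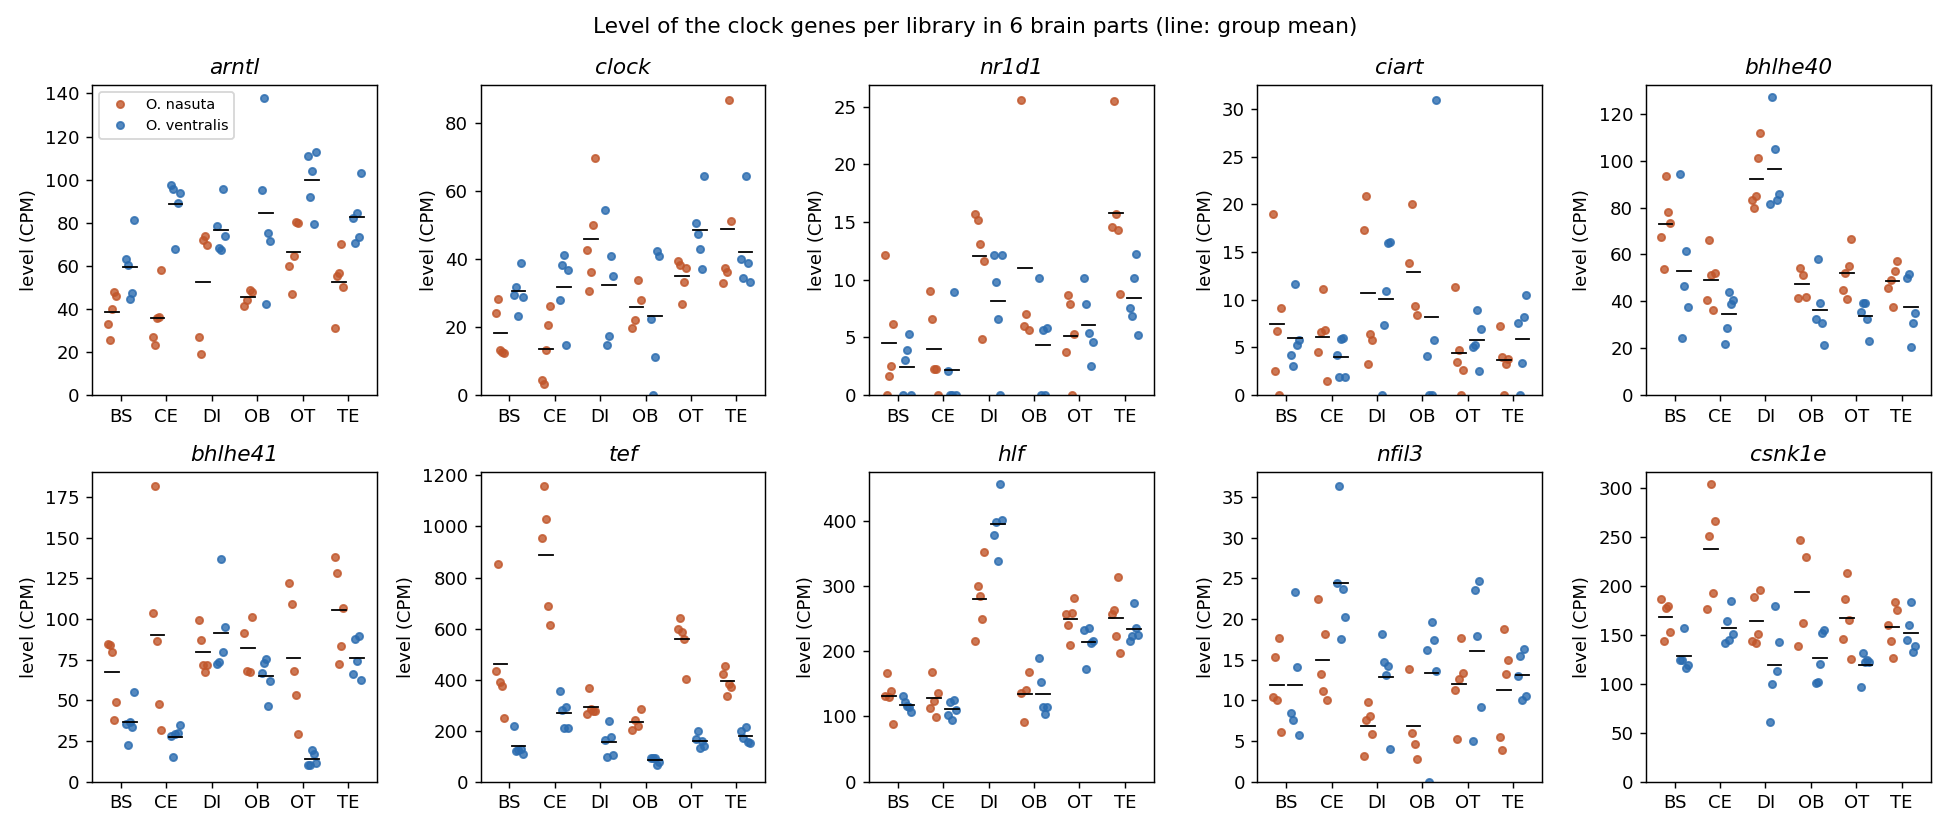
Level of the 10 clock genes (vertical axis, CPM) in each library, by brain part (TE, telencephalon; OB, olfactory bulbs; DI, diencephalon; OT, optic tectum; CE, cerebellum; BS, brain stem), with 1 point per fish, O. nasuta in orange and O. ventralis in blue, and a line at the mean of each group. The points of tef do not overlap between the species in any of the 6 parts, and hlf is highest in the diencephalon of both.

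Levels differed between brain parts for most of the clock genes, and the parts with high levels were not the same from gene to gene. Every part was set against the average of the remaining 5 within a species, which gives 12 comparisons, and the log2 differences that follow are part minus average. The joint test over these 12 comparisons called 9 of the 10 clock genes, against 76.5% of all genes tested, and ciart alone was not called (adjusted p = 0.124, edgeR quasi-likelihood test with Benjamini-Hochberg adjustment). At least 1 part differed for 8 of the 10 in O. nasuta (60.3% of all genes) and for 6 of the 10 in O. ventralis (62.4% of all genes). Of the 120 pairs of a clock gene and a comparison 34 were called, against 25.2% of such pairs over all genes. They were 21 with higher levels (14.6% over all genes) and 13 with lower levels (10.6%). In 10 of 60 pairs of a gene and a part the same direction was called in both species, against 18.7% over all genes. The shares of clock genes were thus near those of all genes. In whole pieces of tissue, fewer cells of a type and less RNA per cell cannot be told apart. The 6 comparisons within a species share libraries, since each part also enters the average of the others.

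Among the activators, arntl was highest in the optic tectum of both species, at 66.3 ± 14.1 CPM (SD, n = 5 fish) in O. nasuta and 99.7 ± 14.2 CPM (n = 5) in the other species. The difference from the other parts was called in O. nasuta, at 0.56 on the log2 scale (SE 0.16, stage-wise adjusted p = 0.0114, edgeR), while the value of 0.40 for O. ventralis did not pass. In O. ventralis the brain stem was lower than the other parts, at 59.3 ± 14.5 CPM (log2 difference −0.54 with SE 0.159, adjusted p = 0.0155, edgeR). Neither call held in every setting: that of the optic tectum was lost without O. nasuta fish 1 (0.48, adjusted p = 0.14), and that of the brain stem without O. ventralis fish 1, 3 or 4 (−0.54 to −0.49). The range of arntl over the 6 parts was narrow, with 0.85 log2 units between the highest and lowest part in O. nasuta and 0.73 for O. ventralis.

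Its partner clock varied more between parts, and in O. nasuta it was lowest in the cerebellum. The 5 cerebella of O. nasuta had 4.51, 3.30, 13.3, 20.4 and 26.0 CPM of clock in fish 1 to 5, against 30.4 to 69.6 CPM in the diencephalon and 32.8 to 86.7 CPM in the telencephalon. Every cerebellum of O. nasuta was thus below every diencephalon and telencephalon of that species, and the lowest came from fish 1 and 2. The values of fish 1 and 2 lay under the limit of detection of 3 counts. This limit was 13.3 CPM in the cerebellum of fish 1 and 9.7 CPM in that of fish 2. The log2 difference of clock was −1.13 for the cerebellum (SE 0.31, adjusted p = 0.0077), 0.75 for the diencephalon (SE 0.23, adjusted p = 0.0227) and 0.88 for the telencephalon (SE 0.213, adjusted p = 0.00163, edgeR). The call of the cerebellum was lost without fish 1 (−0.97, adjusted p = 0.0572) or fish 2 (−0.91), that of the diencephalon without fish 1 (0.72) or fish 5 (0.65, adjusted p = 0.222), and that of the telencephalon without fish 4 (0.56, adjusted p = 0.344). In O. ventralis no part was called for clock. The cerebella there had 27.9, 38.2, 41.1, 14.8 and 36.8 CPM, and the group means ran from 23.3 CPM in the olfactory bulbs to 48.4 CPM in the optic tectum. The difference between the species in these patterns was itself tested over 15 comparisons of a pair of parts, and clock was not called (joint adjusted p = 0.337, edgeR).

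Among the repressors, bhlhe40 was highest in the diencephalon of both species. It had 83.4, 79.8, 85.0, 101 and 112 CPM in the O. nasuta diencephala and 81.6, 127, 105, 83.3 and 85.8 CPM in those of O. ventralis. In the cerebellum, telencephalon, olfactory bulbs and optic tectum no library of either species exceeded 66.4 CPM, and the brain stem was the only other part to reach the range of the diencephalon. The diencephalon was above the average of the other parts by 0.79 log2 units in O. nasuta (SE 0.16, adjusted p = 7.59e-05) and by 1.36 for O. ventralis (SE 0.165, adjusted p = 5.73e-11, edgeR).

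The nuclear receptor gene nr1d1 had its highest mean in the telencephalon of both species. Its levels there were 14.6, 25.5, 15.7, 14.3 and 8.73 CPM in O. nasuta, from 7 to 13 reads per library, and 5.23 to 12.2 CPM for O. ventralis. The telencephalon of O. nasuta was called higher by 1.36 log2 units (SE 0.376, adjusted p = 0.00877, edgeR), a call that was lost without fish 4 (1.13, adjusted p = 0.142). Without O. nasuta fish 1, 2 or 3 the gene did not pass the filter. The value for O. ventralis was 0.93 and did not pass. In that species the diencephalon was nearly level with the telencephalon, with means of 8.09 and 8.41 CPM. Its fitted value of 0.95 did not pass either. The repressor gene ciart, whose product (Chrono) binds the activators in mammals, had its highest means in the olfactory bulbs (12.9 ± 5.30 CPM, n = 4) and the diencephalon (10.7 ± 7.83 CPM, n = 5) of O. nasuta and in the diencephalon of O. ventralis (10.1 ± 6.71 CPM, n = 5). With SDs of this size the parts could not be ordered for ciart.

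The output regulators tef, hlf and nfil3 encode bZIP transcription factors that share the D-box as their binding site. The products of tef and hlf activate and the product of nfil3 represses from it, and tef is known in zebrafish as a gene induced by light. The highest level of tef was in the cerebellum. In O. nasuta it had 956, 1160, 1030, 688 and 614 CPM there, and the O. ventralis cerebella had 355, 279, 209, 294 and 211 CPM. In O. nasuta the lowest cerebellum lay above every library of the diencephalon, olfactory bulbs and telencephalon, but within the range of the optic tectum (404 to 643 CPM) and of the brain stem, where fish 2 had 854 CPM. The cerebellum was above the other parts by 1.27 log2 units in O. nasuta (SE 0.113, adjusted p = 1.26e-16) and by 0.97 for O. ventralis (SE 0.126, adjusted p = 6.84e-10, edgeR). The olfactory bulbs were lowest, with 201 to 283 CPM in O. nasuta (n = 4) and 63.6 to 94.6 CPM for O. ventralis (n = 5). Their log2 differences were −1.11 (SE 0.15, adjusted p = 1.66e-09) and −1.09 (SE 0.164, adjusted p = 5.09e-08, edgeR). In O. nasuta tef was also called lower in the diencephalon (−0.62) and higher in the optic tectum (0.49).

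The relative of tef, hlf, had a different order of parts and was called in all 6 parts of both species. In the diencephalon it had 215, 300, 284, 249 and 352 CPM in O. nasuta and 378, 398, 338, 457 and 402 CPM for O. ventralis. Every diencephalon of O. ventralis was above every other library of that species, while the diencephala of O. nasuta overlapped with the optic tectum (210 to 282 CPM) and the telencephalon (197 to 314 CPM). The log2 difference of the diencephalon was 0.72 in O. nasuta (SE 0.116, adjusted p = 3.63e-07) and 1.36 for O. ventralis (SE 0.109, adjusted p = 8.5e-19, edgeR). The optic tectum and telencephalon were higher than average too, with log2 differences of 0.30 to 0.53. The call of the optic tectum of O. ventralis was lost without O. nasuta fish 1 or 2 or O. ventralis fish 3, 4 or 5 (0.21 to 0.27), and that of the olfactory bulbs of O. nasuta without fish 2 (−0.36, adjusted p = 0.0632). The cerebellum, where tef was highest, had low levels of hlf, at 128 ± 26.2 CPM (n = 5) in O. nasuta and 111 ± 12.9 CPM (n = 5) for O. ventralis (log2 differences −0.63 and −0.85). In O. nasuta the means of the brain stem, cerebellum and olfactory bulbs lay within their SDs, at 128 to 134 CPM. For O. ventralis they ran from 111 CPM in the cerebellum to 135 CPM in the olfactory bulbs, where the SD was 35.3 CPM.

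The repressor of the D-box, nfil3, was higher in the cerebellum of O. ventralis, with 24.4, 36.3, 17.6, 23.7 and 20.2 CPM and a log2 difference of 0.88 (SE 0.259, stage-wise adjusted p = 0.0176, edgeR). The joint test of nfil3 no longer passed without any one of O. nasuta fish 3, 4 or 5 or O. ventralis fish 1, 2, 4 or 5 (0.73 to 0.99). With all fish kept, it also failed with DESeq2 in place of edgeR (0.83), with DESeq2 size factors (0.82) and without a term per fish (0.84). The cerebellum of O. nasuta had 10.1 to 22.5 CPM and was not called (log2 difference 0.52). The kinase gene csnk1e, whose product phosphorylates the period proteins of the loop, varied least between parts, over 0.57 log2 units in O. nasuta and 0.46 for O. ventralis. It was called only in the cerebellum of O. nasuta, at 238 ± 53.1 CPM (n = 5), by 0.49 log2 units (SE 0.125, adjusted p = 0.00274, edgeR), but not without fish 3 (0.38, adjusted p = 0.127).

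**Figure D2:**
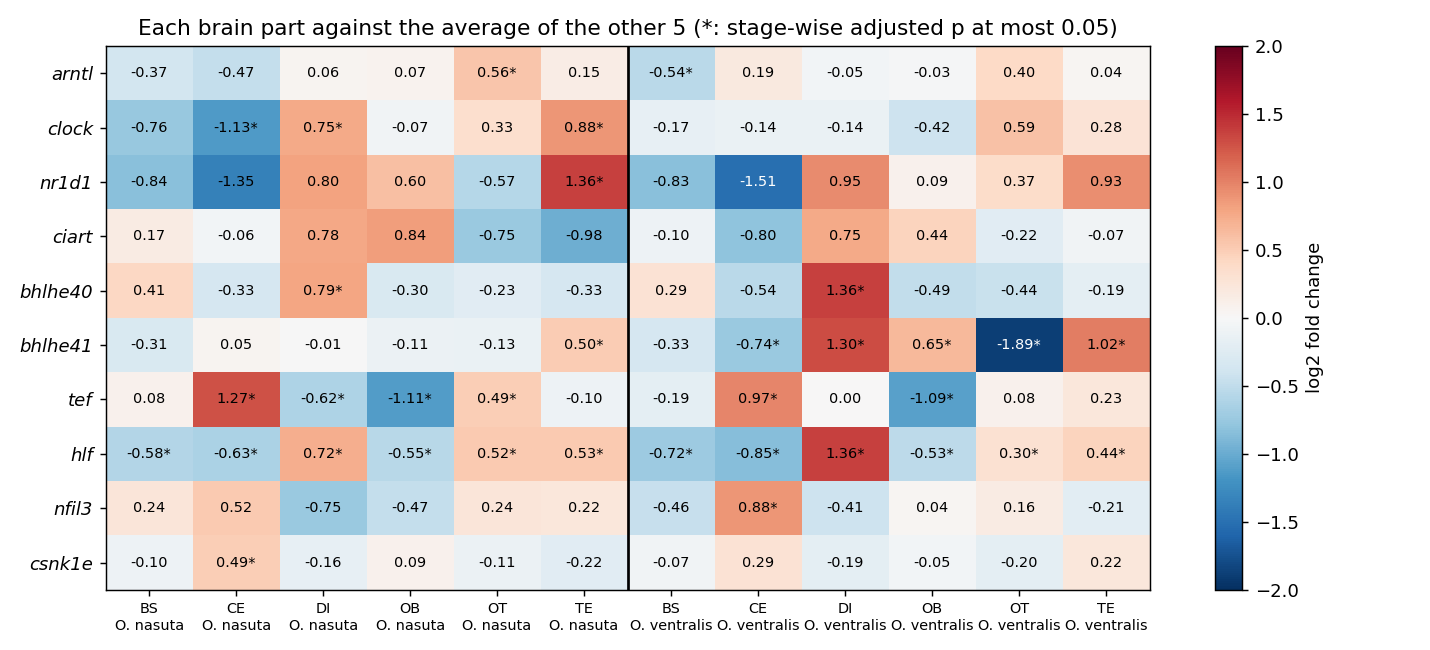
Log2 difference of each clock gene (rows) from the mean of the remaining 5 parts, for each brain part within a species (columns, O. nasuta left, O. ventralis right; abbreviations as above), red for higher and blue for lower, with an asterisk where the stage-wise adjusted p was at most 0.05. The row of hlf has an asterisk in all 12 columns, and bhlhe41 ranges from −1.89 to 1.30 for O. ventralis but only from −0.31 to 0.50 for O. nasuta.

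The brain parts of bhlhe41 were ordered differently in the species. The joint test of the 15 comparisons of a pair of parts between the species called 47 genes, or 0.402% of those tested, and bhlhe41 was the only clock gene of the 10 among them (adjusted p = 4.88e-05, edgeR). The study had already shown bhlhe41 among its genes with such a difference, from these same data. This call of bhlhe41 was thus known beforehand and is not a new result. In the optic tectum the 5 O. nasuta had 122, 109, 67.8, 53.0 and 29.2 CPM and the 5 O. ventralis 10.1, 10.5, 19.7, 17.3 and 11.5 CPM. These O. ventralis values rest on only 2 to 11 reads per library. That of fish 1 lay under the level of 3 counts in its library, 15.9 CPM. In the cerebellum the values were 104, 182, 86.6, 47.5 and 31.8 CPM against 27.9, 15.3, 29.4, 29.7 and 34.9 CPM. In the diencephalon, by contrast, they were 99.1, 87.4, 71.9, 67.6 and 71.5 CPM against 72.6, 73.3, 137, 79.8 and 95.2 CPM. The groups were thus separate in the optic tectum, touched in the cerebellum through O. nasuta fish 5, and overlapped in the diencephalon.

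In O. ventralis bhlhe41 was called lower in the optic tectum, by a log2 difference of −1.89 (SE 0.28, adjusted p = 3.7e-08), and the cerebellum (−0.74). It was called higher in the diencephalon (1.30, SE 0.178, adjusted p = 3.75e-09, edgeR), telencephalon (1.02) and olfactory bulbs (0.65). The olfactory bulb value was 0.45 (adjusted p = 0.5) without the 3 olfactory bulb libraries that stood nearest to another part or were shallowest. It also lost its call without O. ventralis fish 1, 2, 3 or 5 (0.55 to 0.68), as did the cerebellum without fish 2 or 3 (−0.64 and −0.69). In O. nasuta only the telencephalon was called (0.50, SE 0.156, adjusted p = 0.021, edgeR), and not without fish 1 (0.52, adjusted p = 0.0572) or fish 5 (0.30, adjusted p = 0.634).

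The difference of bhlhe41 between the diencephalon and the optic tectum was 2.56 log2 units smaller in O. nasuta than in O. ventralis (log2 difference −2.56, SE 0.384, adjusted p = 1.41e-05, edgeR), and it was called in every setting that was tried. The test also passed for the olfactory bulbs against the optic tectum (−2.11, adjusted p = 0.00621), the optic tectum against the telencephalon (1.90, adjusted p = 0.0126) and the cerebellum against the diencephalon (1.75, adjusted p = 0.0066, edgeR). These 3 calls were less stable. Leaving out 1 fish left between 1 and 4 of the 4 calls, with 1 without O. nasuta fish 1, 2 or 3 or O. ventralis fish 3, and 2 without O. ventralis fish 1, 2 or 5. Where a call was lost in this way, the value was −2.22 to −1.91, 1.75 to 2.08 and 1.40 to 1.74, in the order given above. The joint adjusted p of the other 9 clock genes was 0.23 to 0.98.

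Between the species, tef differed in every brain part. Its level in the cerebellum was 889 ± 231 CPM (SD, n = 5) for O. nasuta and 270 ± 61.5 CPM (n = 5) for O. ventralis. In the same order it was 558 ± 91.3 and 160 ± 26.1 CPM in the optic tectum, 460 ± 230 and 140 ± 44.3 CPM in the brain stem, and 393 ± 46.5 and 177 ± 27.1 CPM in the telencephalon, with 5 fish in each group. The levels were 294 ± 42.3 and 155 ± 57.7 CPM in the diencephalon (n = 5 each), and lowest in the olfactory bulbs, at 235 ± 35.4 (n = 4) and 83.9 ± 13.7 CPM (n = 5). The lowest O. nasuta library was above the highest O. ventralis library in all 6 parts.

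The log2 difference of tef, O. nasuta minus O. ventralis, was 1.82 in the optic tectum, 1.71 in the brain stem, 1.70 in the cerebellum, 1.50 in the olfactory bulbs, 1.15 in the telencephalon and 0.93 in the diencephalon. The adjusted p ran from 4.06e-08 in the cerebellum to 0.0129 in the diencephalon (edgeR, group model, Benjamini-Hochberg per part). In the diencephalon O. ventralis fish 3 reached 237 CPM, close to the lowest O. nasuta value of 266 CPM. The call of the diencephalon was lost without O. ventralis fish 2 (0.80, adjusted p = 0.0754) or fish 5 (0.80, adjusted p = 0.081), and those of the other 5 parts were kept without any 1 fish. The differences between the parts in the size of the species difference were not called (joint adjusted p = 0.23).

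The number of clock genes called in a part ranged from 1 to 4. In the cerebellum 4 of the 10 were called, against 2.48% of all genes. Beside tef these were bhlhe41 (log2 difference 1.60, SE 0.325, adjusted p = 0.00106) and csnk1e (0.63, SE 0.17, adjusted p = 0.0219), which were higher in O. nasuta, and arntl (−1.21, SE 0.246, adjusted p = 0.000731, edgeR), which was lower. The call of csnk1e was lost without O. nasuta fish 2, 3 or 5 or O. ventralis fish 5 (0.54 to 0.62). The arntl levels were 27.1, 23.1, 35.5, 36.2 and 57.8 CPM in the cerebella of O. nasuta and 97.7, 95.6, 67.6, 89.0 and 93.8 CPM in those of O. ventralis, without overlap. In the optic tectum tef and bhlhe41 (2.40, SE 0.38, adjusted p = 4.58e-05, edgeR) were called, where the background was 1.82%. Only tef was called in the brain stem (1.06% of all genes), diencephalon (1.46%), olfactory bulbs (2.73%) and telencephalon (2.10%). In the diencephalon hlf was lower in O. nasuta by a log2 difference of −0.50 that missed the threshold (adjusted p = 0.0557, edgeR), and it was called with the parts of a fish as a random block (−0.52, adjusted p = 0.0297, limma voom).

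The CPM of the species did not overlap for tef and arntl in the cerebellum, against 4.47% of all genes, and for the same genes in the telencephalon, against 4.79%. In the optic tectum they did not overlap for tef, bhlhe40 and bhlhe41 (4.59% of all genes). In the brain stem, diencephalon and olfactory bulbs tef alone did not overlap, where the shares over all genes were 3.32%, 3.55% and 2.93%.

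A difference in the average over parts was tested with 1 value per fish, the mean log2 CPM over the 5 parts without the olfactory bulbs. Such an average can be carried by a few parts and does not show that all parts share a difference. This test called 5 of the 10 clock genes, against 13.2% of all genes, 4 of them higher in O. nasuta (7.04% of all genes) and 1 lower (6.19%). For the same 5 genes the fish means of the species did not overlap, against 9.95% of all genes. The mean of tef ranged from 8.52 to 9.33 log2 CPM in O. nasuta and from 7.15 to 7.75 for O. ventralis, a log2 difference of 1.44 or 2.71-fold (SE 0.152, adjusted p = 0.000216, limma). Higher in O. nasuta were also bhlhe41 by 0.90 (SE 0.232, adjusted p = 0.0334), csnk1e by 0.40 (SE 0.0797, adjusted p = 0.000913) and bhlhe40 by 0.39 (SE 0.0942, adjusted p = 0.00553, limma). The call of bhlhe41 was lost without O. nasuta fish 3 or O. ventralis fish 1, 2, 4 or 5 (0.82 to 0.93). Within parts, the fitted values of tef and csnk1e were higher in O. nasuta in 6 parts, and those of bhlhe41 and bhlhe40 in 5. In the diencephalon bhlhe41 had −0.20 and bhlhe40 −0.05, and in the telencephalon csnk1e had only 0.08.

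Lower in O. nasuta was arntl, with fish means of 5.14 to 5.98 log2 CPM against 6.23 to 6.58 for O. ventralis (log2 difference −0.75, SE 0.164, adjusted p = 0.00808, limma), and its fitted value was lower in O. nasuta in all 6 parts. The exact permutation test over the fish gave p = 0.00794 for each of the 5 called genes, the smallest p that 5 against 5 fish allow. This p restates that their fish means did not overlap, and none of the 5 passed after adjustment over all genes. The partner of arntl, clock, had a difference of −0.32 (adjusted p = 0.0782) and nr1d1 one of 0.34 (adjusted p = 0.184, limma), while hlf, with 0.02, and ciart, with −0.04, lay close to 0. For nfil3 the fitted value was lower in O. nasuta in all 6 parts too, but its difference of −0.33 did not pass (adjusted p = 0.191, limma).

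The median log2 difference over all genes was 0 in this test, and 0.18 over the 10 clock genes. Of the marker lists for other cells and tissues, only 3 of 6 pineal genes and 2 of 4 photoreceptor genes were in the count tables. The pineal list summed to at most 17.7 CPM in any library of O. nasuta and 23.8 CPM of O. ventralis. Photoreceptors summed to at most 135 and 17.8 CPM. Only 1 gene of each list passed the filter, and neither was called between the species. In the other lists gfap (1 of 3 tested genes of astroglia) and fosl2 (1 of 4 tested immediate early genes) were called between the species, against 13.2% of all genes. The part of such differences in the values of the clock genes was not tested.

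**Figure D3:**
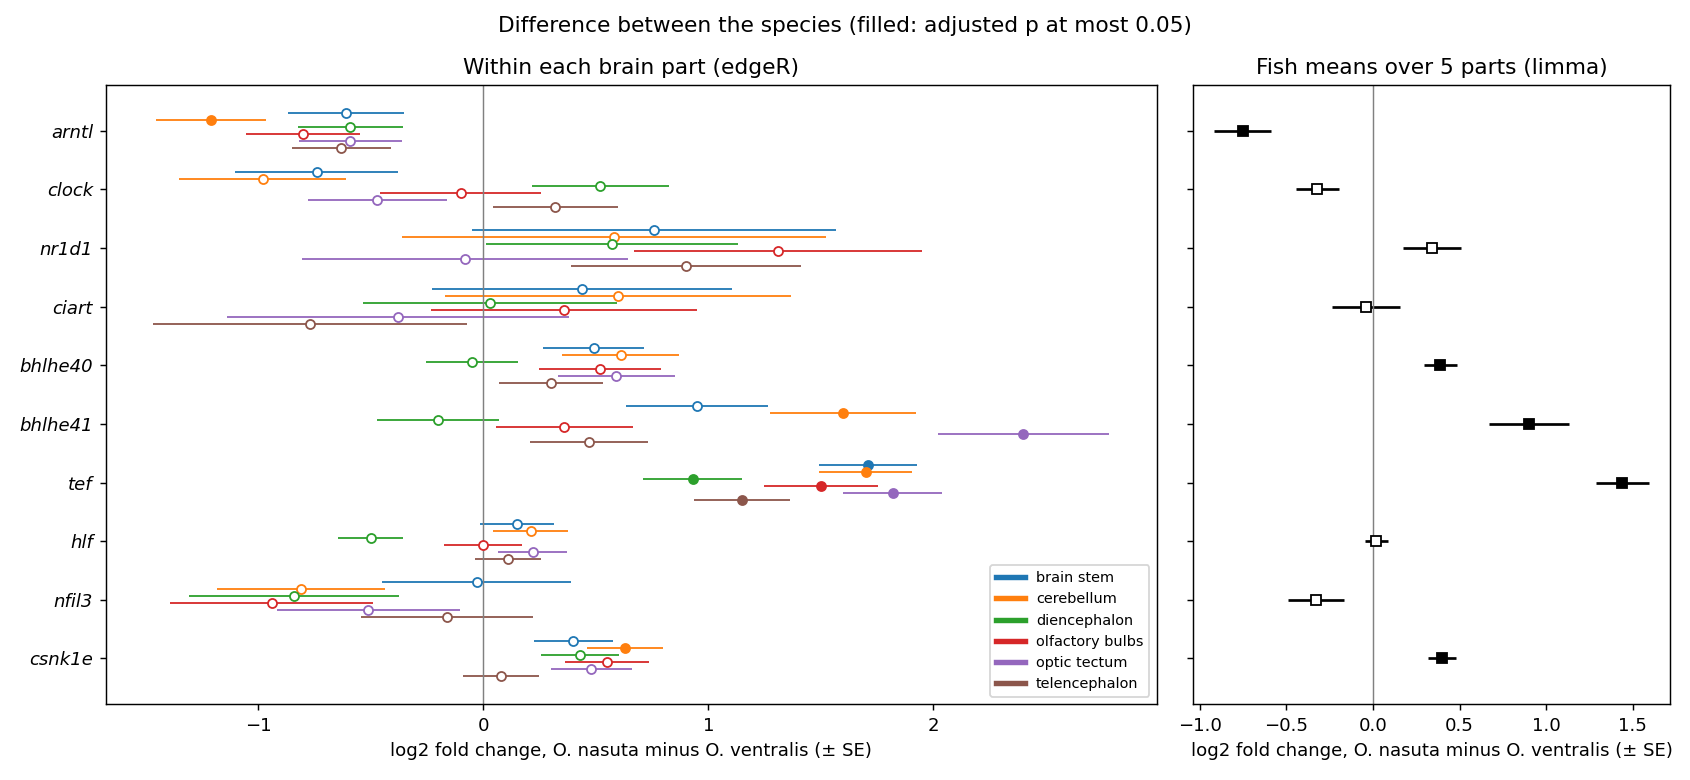
Log2 difference, O. nasuta minus O. ventralis (horizontal axis, with its SE), for each clock gene, on the left within each brain part (edgeR) and on the right for the fish means over 5 parts (limma), filled where the adjusted p was at most 0.05. All 6 values of tef are filled and lie between 0.93 and 1.82, and all 6 of arntl are below 0.

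Fish of one species differed from each other in some clock genes, taken over the parts of their brains. Whether a shift was equal in all parts of a fish was not tested. The joint test of the fish terms called 321 genes, or 2.75% of those tested, and 3 of the 10 clock genes: tef (adjusted p = 0.00357), bhlhe41 (adjusted p = 0.00751) and arntl (adjusted p = 0.0272, edgeR). At an unadjusted p under 0.05 there were 4 of the 10, with ciart as the additional gene (unadjusted p = 0.0105, adjusted p = 0.205), against 10.8% of all genes. After removal of the group means, the share of the remaining sum of squares that lay between fish was 49.6% for arntl, 46.1% for bhlhe41, 43.6% for tef and 31.8% for ciart, and 6.45% for hlf, with a median of 18.1% over all genes.

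These calls rested on few fish and on the whole set of parts. Without O. nasuta fish 1 only tef remained called, and without O. nasuta fish 2 none of the 3 did (adjusted p = 0.187 for tef, 0.0614 for bhlhe41 and 0.145 for arntl, edgeR). For arntl the call was also lost without O. nasuta fish 4 (adjusted p = 0.0792) or fish 5 (adjusted p = 0.0606). It was lost for all 3 genes without the cerebellum (adjusted p = 0.0832 for tef, 0.218 for bhlhe41 and 0.209 for arntl) or the brain stem (adjusted p = 0.283, 0.0509 and 0.153). Without the diencephalon or the optic tectum, bhlhe41 (adjusted p = 0.0564 and 0.269) and arntl (adjusted p = 0.353 and 0.103) did not pass.

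In O. nasuta, fish 1 and 2 were high in bhlhe41 and low in arntl, and fish 4 and 5 the reverse. The mean deviation of bhlhe41 from the group means over the parts of a fish, centred on 0 within the species, was 0.44, 0.43, −0.04, −0.29 and −0.53 log2 units in fish 1 to 5, and that of arntl −0.36, −0.43, 0.15, 0.29 and 0.34. Fish 1 was above the group mean of bhlhe41 in 6 of 6 parts and below that of arntl in 6 of 6. The values of arntl in the diencephalon, 26.7, 19.0, 71.9, 74.0 and 69.6 CPM, were low in fish 1 and 2 and high in fish 3, 4 and 5. Among the parts of O. nasuta, the diencephalon had the widest spread of arntl (SD 27 CPM). The fitted shifts of single fish of these genes against the other 4 did not pass the stage-wise test (lowest adjusted p = 0.271 for bhlhe41 and 1 for arntl).

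For tef it was fish 2 of O. nasuta that stood highest, above the group mean in 6 of 6 parts. Its shift against the other 4 fish was 0.51 log2 units (SE 0.111, stage-wise adjusted p = 0.00689, edgeR), the only called shift of a single fish among the clock genes. Fish 5 was below the mean in 5 of 5 parts, with −0.45 (adjusted p = 0.287). In O. ventralis fish 1 was above the mean of tef in 6 of 6 parts (0.37, SE 0.126) and fish 5 below it in 6 of 6 (−0.37, SE 0.134), and neither passed (adjusted p = 1). The shifts of the O. ventralis fish spanned 0.54 log2 units for tef, 0.47 for bhlhe41 and 0.41 for arntl, against 0.74, 0.97 and 0.77 for O. nasuta. Whether the spread differs between the species was not tested.

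In O. nasuta the sparse repressors nr1d1 and ciart had values in the direction of bhlhe41, with wide errors. The fitted shifts of nr1d1 were 0.99, 0.42, −0.10, −0.80 and −0.51 log2 units in O. nasuta fish 1 to 5, with SEs of 0.376 to 0.496, and nr1d1 was not called (adjusted p = 0.776). Those of ciart were 1.08, 0.58, −0.23, −0.82 and −0.62, with SEs of 0.383 to 0.544. In O. ventralis nr1d1 did not follow bhlhe41, with 0.37 and −0.10 in fish 1 and 5 against −0.12 and 0.09 for bhlhe41. The better measured bhlhe40 had fitted shifts of only −0.27 to 0.26 over the 10 fish.

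Over the 10 fish the mean deviations of bhlhe41 and arntl were negatively correlated, with Pearson's r = −0.92 (exact permutation of fish within species, two-sided, p = 0.00451, adjusted p = 0.203 over 45 pairs of clock genes) and Spearman's rho = −0.84 (exact permutation p = 0.0265, adjusted p = 0.298). Without the 2 fish farthest from the median of bhlhe41, r was −0.88. For ciart and bhlhe41, r was 0.74 (exact p = 0.0157, adjusted p = 0.35) and rho 0.85 (exact p = 0.00403, adjusted p = 0.17), with r = 0.70 without 2 fish. The repressor bhlhe40 had negative values with bhlhe41 (r = −0.62, exact p = 0.0491, adjusted p = 0.426, and rho = −0.53, exact p = 0.136, adjusted p = 0.444), with r = −0.56 without 2 fish. Its r with ciart was −0.75 (exact p = 0.0233, adjusted p = 0.35) and rho −0.64 (exact p = 0.0653, adjusted p = 0.42), and r was −0.36 without 2 fish, so that this value rests on them. For tef and hlf, r was 0.67 (exact p = 0.0492, adjusted p = 0.426) and rho 0.41 (exact p = 0.268, adjusted p = 0.699), with r = 0.55 without 2 fish. For nr1d1 and tef, r was 0.47 (exact p = 0.245, adjusted p = 0.653) and rho 0.85 (exact p = 0.00757, adjusted p = 0.17), with r = 0.87 without 2 fish. The exact p of rho was also under 0.05 for tef with arntl (0.0257), nr1d1 with bhlhe41 (0.0474) and arntl with clock (0.0485). None of the 45 pairs passed at an adjusted p of 0.05, by r or by rho. By r, 5 had an unadjusted exact p under 0.05, and these correlations remain descriptions. The deviations of a pair of genes come from the same libraries.

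**Figure D4:**
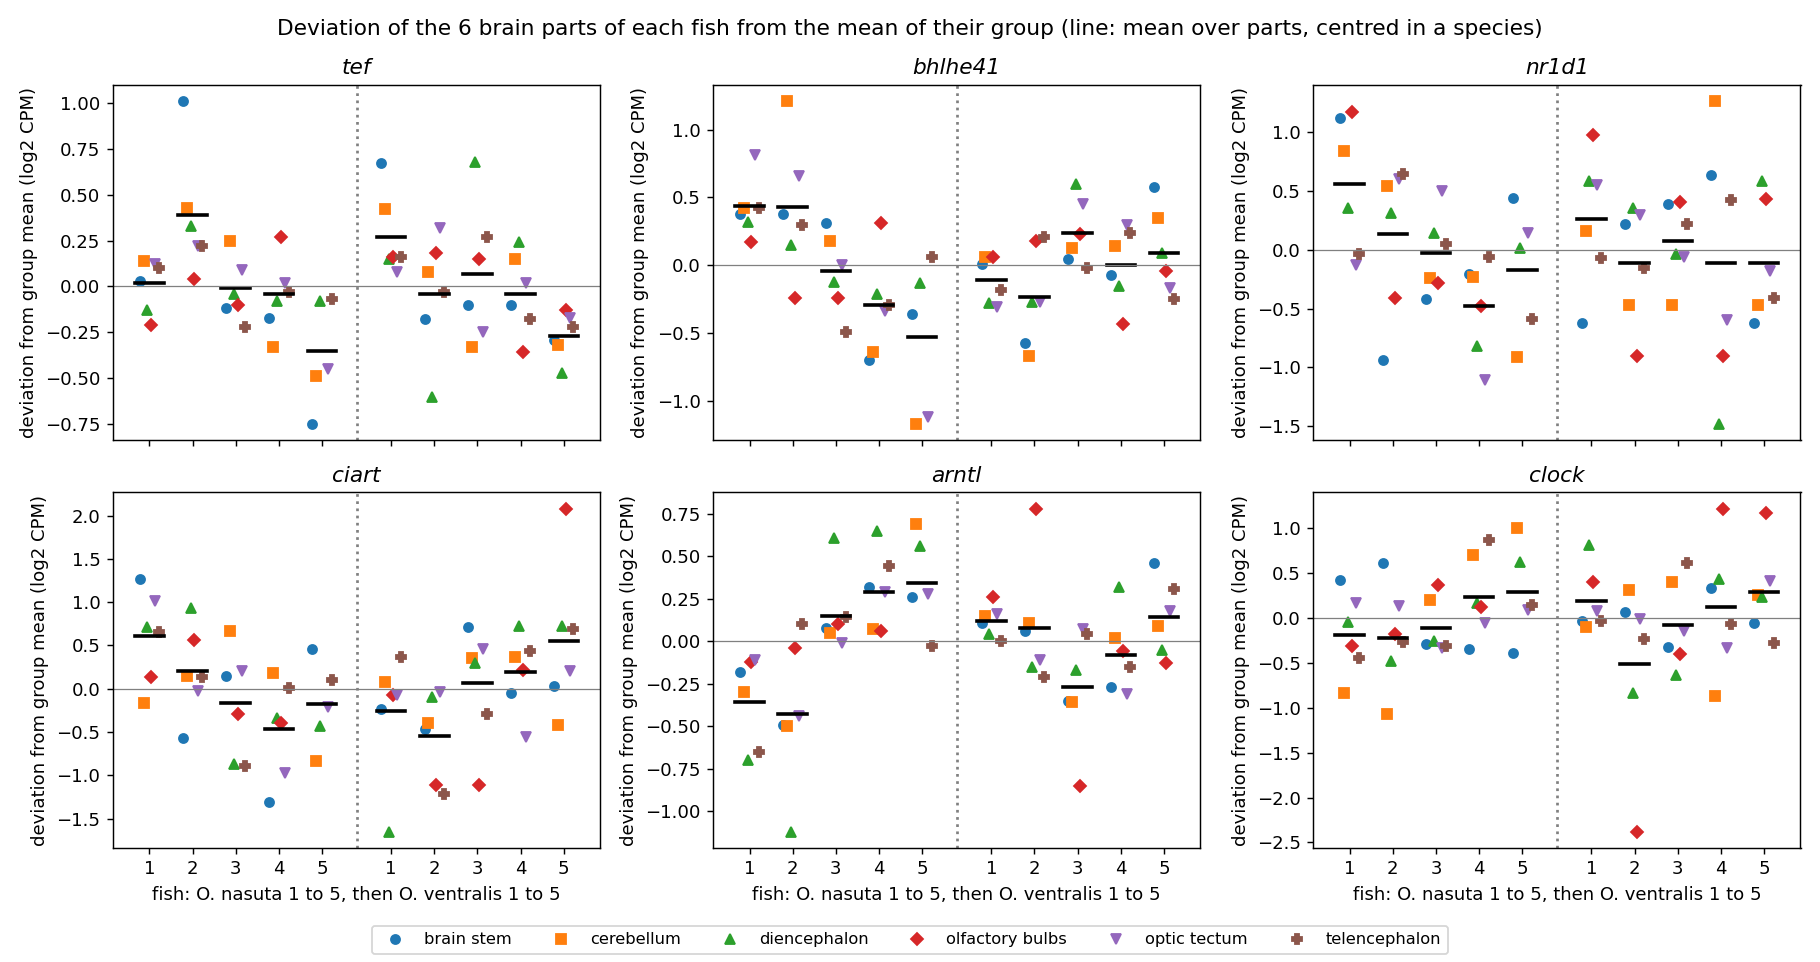
Deviation of each library from the mean of its group (vertical axis, log2 CPM) for 6 clock genes, by fish (horizontal axis, O. nasuta 1 to 5 left of the dotted line, O. ventralis 1 to 5 right of it), with 1 symbol per brain part and a line at the mean over the parts of a fish, centred on 0 within a species. In O. nasuta the line of bhlhe41 is 0.44 in fish 1 and −0.53 in fish 5, and that of arntl −0.36 and 0.34.

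Over their parts O. nasuta fish 1 and 2 had 3587803 and 2840981 counts, and fish 4 and 5 had 3354934 and 2815595, so that the totals of these pairs of fish overlapped. In single parts the pairs could be separate. The cerebella of fish 1 and 2 had 225512 and 309429 counts, and those of fish 4 and 5 had 469273 and 745454. Fish 1 and 2 also had fewer counts than fish 4 and 5 in the telencephalon, but more in the optic tectum. The part of depth in the shifts was not tested. Other genes differed between fish as well. Of the 4 tested immediate early genes, which respond to neural activity and handling, fosb, egr1 and npas4 were called by the joint test of fish terms, and so was pomc, the 1 tested gene of the pituitary list. Over all genes 2.75% were called by this test. The summed level of the immediate early genes was 128 to 1100 CPM in O. nasuta libraries and 86.1 to 1070 CPM in those of O. ventralis. Their part in the shifts of the clock genes was not tested.

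Of other genes linked to the clock, 13 were found by symbol or annotation and 9 passed the filter. The ones under the filter were nr1d2, timeless, tipin and aanat, with at most 13 reads in any library. Genes of the period and cryptochrome families were not analysed here. By the joint test 7 of the 9 differed between parts, near the 76.5% of all genes, and csnk1a1 and sirt1 did not pass. The genes of the ROR receptors, which activate arntl in mammals from the sites that nr1d1 represses, were highest in the optic tectum, where arntl also had its highest mean. There rora reached 747 ± 42.0 CPM for O. nasuta and 669 ± 74.0 CPM for O. ventralis (SD, n = 5 each). Its log2 differences from the other parts were 1.78 (adjusted p = 8.16e-27) and 1.74 (adjusted p = 1.91e-25, edgeR). The levels of rorb there were 153 ± 14.2 and 144 ± 26.3 CPM, with log2 differences of 3.42 (adjusted p = 8.46e-29) and 3.25 (adjusted p = 2e-25, edgeR). In the cerebellum rorb was called higher too, with log2 differences of 1.66 in O. nasuta and 1.41 for O. ventralis, but arntl was not called there. A link between the levels of the ROR genes and arntl was not tested.

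Between the species LOC100693993, 1 of these 9 genes, was lower in O. nasuta over 5 parts (log2 difference −1.39, SE 0.214, adjusted p = 0.00299, limma). The locus LOC100693993 carries no gene name in the count tables, and its annotation in the study includes the circadian rhythm. It was the 1 gene of the 9 called among fish (adjusted p = 5.17e-05) and the 1 gene called by the test of parts between species (adjusted p = 0.00141, edgeR). Over all genes the shares called were 2.75% among fish and 0.402% by the test of parts between species. The study had already reported this locus for a species difference between parts in these same data. The call by that test was thus known in advance and is no separate result. The cerebellum was part of every called comparison of that test for this locus. The species difference of the locus in the cerebellum is thus not separate either, and its values within parts are given as a description. In the cerebellum LOC100693993 had 18.0, 19.8, 51.1, 40.7 and 39.0 CPM in O. nasuta and 193, 197, 141, 243 and 235 CPM for O. ventralis, a log2 difference of −2.47 (SE 0.281, adjusted p = 4.97e-09, edgeR). Its levels were called lower in O. nasuta in 5 of 6 parts, without overlap, the diencephalon being the exception. Fish 1 and 2 of O. nasuta were below the group mean in 6 of 6 parts, with shifts against the other 4 fish of −0.44 and −0.82 log2 units, while fish 4 and 5 had 0.45 and 0.61. Of these, fish 2 (adjusted p = 0.00147) and fish 5 (adjusted p = 0.0422) passed the stage-wise test. The direction in these fish was that of arntl.

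Among the genes with a symbol, those most similar to each clock gene over the 12 group means of log2 CPM were found for description. For tef these were idnk (r = 0.938), mat2a (r = 0.938) and mrpl10 (r = 0.928), for hlf pi4ka (r = 0.914), khdrbs3 and lzts3, for bhlhe41 srm (r = 0.91), sult4a1 and shoc2, and for arntl ipo8 (r = 0.949), wsb1 and sap18. For bhlhe40 they were filip1 (r = 0.914), ndufb9 and onecut2, for clock rpf2 (r = 0.891), ocrl and acbd6, and for csnk1e yme1l1 (r = 0.926), add1 and dhrs12. The sparse genes had rapgefl1 (nr1d1, r = 0.919), traf4 (nfil3, r = 0.922) and acp1 (ciart, r = 0.846) as their nearest. None of the 3 nearest genes of any clock gene was another clock gene. None of them was called among fish either, where the share over all genes was 2.75%. The 12 means share the parts and the fish of each species. All tested genes with a symbol were searched, and genes named only as a locus, LOC100693993 among them, were left out.

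Over the 59 deviations from group means, the gene with a symbol most similar to tef was nfs1 (r = 0.576) and the most opposed was map1b (r = −0.603). Of the 10 most similar genes nfs1 and ndufc1 (r = 0.497) were called among fish (adjusted p = 0.0319 and 2.81e-14, edgeR), where the share over all genes was 2.75%. None of the 5 most opposed was called. The gene tef was taken because its fish terms had the lowest p, and its deviations hold its shifts between fish. Genes similar to it are thus called more easily by this choice, and nothing is drawn from the count. Of the 10 genes most similar to nr1d1, only rnf34 (r = 0.452) was called among fish (adjusted p = 0.0206, edgeR).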

How the data were processed

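The deposited counts (reads for each gene in each library, not normalized) were made by the authors by mapping trimmed 3′ reads to the O. niloticus genome (STAR 2.5.2b) and assigning them by strand (HTSeq 0.6.1p1). Lines that name no gene (16.5% of reads outside genes, 0.334% ambiguous) were left out. Reads carry no molecular identifiers. Libraries of 1 species and number were taken as 1 fish, from the titles and the R script of the study. As a check, residual log2 CPM of different parts correlated by 0.0534 on average within a fish, and the lowest of the 10 fish was 0.0356. Between fish of the same species the value was −0.0134, which is not independent of the first because group means were removed.

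Genes were tested if they exceeded 15 CPM in 4 or more libraries, with TMM scaling. With R 4.3.3, edgeR 4.0.16 (legacy quasi-likelihood fit, robust) a model with a term per fish and per part within species was fitted. Its 12 comparisons of parts, 15 comparisons of species by part and differences between fish (8 degrees of freedom) were tested jointly at 0.05. Single comparisons, for fish 10 of each against the other 4, followed stage-wise with Holm's method. Species were compared within parts by a group model without fish terms, and over 5 parts by limma 3.58.1 on fish means of log2 CPM (prior count 2). Tests are two-sided, and fold changes are on the log2 scale. DESeq2 1.42.0, other filters and scalings, another prior count, and each fish left out were the alternatives, and leaving out 3 olfactory bulb libraries and the alternatives of the correlations were added after seeing the data. The RNA extraction batch of a sample was not given in the sources used here. All clock genes are named, with the 3 nearest genes of each among those with a symbol. Results of 1 related gene are not reported here. The clock genes, gene lists and tests were chosen with earlier results of these data known. The scripts were tested on simulated counts.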

Additional observations from a re-analysis of the deposited data

Results flagged for a closer look

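A single fish stood far from the others of its group, by Dixon's criterion, in 9 of 120 sets of a clock gene and a group. For normally distributed values chance gives about 1 in 20, but CPM from few reads need not follow that distribution. In O. nasuta nr1d1 had 25.6 CPM (26 counts) in the olfactory bulbs of fish 1, against 5.59 to 6.99 CPM in the others, and tef had 369 CPM in the diencephalon of fish 2, against 266 to 284 CPM. In O. ventralis tef had 218 CPM in the brain stem of fish 1 (110 to 127 CPM in the others), and csnk1e 157 CPM in the brain stem of fish 3 (116 to 124 CPM). In the same species clock had 64.3 CPM in the telencephalon of fish 3 (33.1 to 40 CPM), ciart 31.0 CPM in the olfactory bulbs of fish 5 (16 counts, others 0 to 5.78 CPM) and nr1d1 8.90 CPM in the cerebellum of fish 4 (3 counts, others 0 to 2.09 CPM). Low values were those of arntl in the cerebellum of O. ventralis fish 3, 67.6 CPM against 89.0 to 97.7 CPM, and of csnk1e in the optic tectum of O. ventralis fish 1, 96.2 CPM against 122 to 131 CPM. None of the 20 sets of fish means had such a value.

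The species differed in how bhlhe41 changed between parts, O. nasuta minus O. ventralis, by 1.75 log2 units for the cerebellum against the diencephalon, −2.56 for the diencephalon against the optic tectum, −2.11 for the olfactory bulbs against the optic tectum and 1.90 for the optic tectum against the telencephalon. That bhlhe41 differs in this way was already reported by the study from the same data. In the library that was left out, the olfactory bulbs of O. nasuta fish 5, tef had 5 counts and csnk1e 8 counts, above the 3 counts taken as the limit of detection.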

How the results depend on the processing

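No called value of a clock gene or related gene changed sign, 64 of 108 kept their call in every alternative and 44 lost it in at least 1. Without the replicate block (no term per fish) the calls of the comparisons of parts went from 34 to 28, and those of the species-by-part test from 4 to 1, that of bhlhe41 between diencephalon and optic tectum. With the parts of a fish as a random block (correlation 0.023) the species test within parts gave 11 calls in place of 10, adding hlf in the diencephalon. With 1 fish left out the counts were 28 to 33 for the parts, 1 to 4 for species by part (4 with all fish), 0 to 3 for differences between fish (3 with all fish), 8 to 11 for species within parts, 4 to 6 for the fish means (5 with all fish) and 0 for the correlated pairs. The count of 3 genes that differed between fish was 0 without the brain stem, 0 without the cerebellum, 1 without the diencephalon and 1 without the optic tectum. With the exact permutation over all splits of the fish in place of limma, 0 of the 5 genes passed, each at an adjusted p of 0.0798 and the smallest p that the splits allow. Without a filter (28251 genes tested), with the filterByExpr filter, with all 60 libraries, with DESeq2 or its size factors, the counts changed by at most 2, and Benjamini-Hochberg adjustment of each comparison alone gave 39 calls of parts. Log2 values moved by at most 0.0663 between the scalings. The genes nr1d1 and ciart fell under the filterByExpr filter, and nr1d1 under the main one without O. nasuta fish 1, 2 or 3. A library of median depth holds few reads of nr1d1, ciart and nfil3, and their differences were measurable only where large. Species and aquarium cannot be told apart.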
